A study of Mus musculus with 28 samples.

Results

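The genes followed here are 9 histone lysine demethylases of the mouse, Kdm1a, Kdm2a, Kdm2b, Kdm3a, Kdm4a, Kdm5a, Kdm5b, Kdm6b and Kdm7a, chosen by name from the 55450 genes of the RNA table. They were measured in C10 cells, a Pre-B cell line derived from HAFTL cells that carries a transgene for C/EBPα fused to the estrogen receptor (CEBPalpha-ER). C10 is a single line, all groups carry the transgene, and the groups differ in the time after induction with 100 nM β-estradiol, 10 nM IL-3 and CSF-1, which converts the cells toward macrophages. RNA was sequenced at 0h (uninduced), 1h, 12h and 48h, with 3 libraries per time that the labels call biological replicates. Promoter Capture Hi-C, which lists the restriction fragments found in contact with promoter fragments, was given as 1 merged list per time. Fewer cells of a type and less RNA per cell cannot be told apart in these bulk samples.

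Histone lysine demethylases remove methyl groups from lysines of histone tails. Kdm1a (LSD1) is a flavin-dependent oxidase, while the other members carry a Jumonji C domain and use iron and 2-oxoglutarate. Methylation of H3K4 marks promoters and enhancers, methylation of H3K36 marks transcribed gene bodies, and methylation of H3K9 and H3K27 is linked to repression, so that the members act on marks of opposite meaning. Kdm1a works with the CoREST corepressor in blood cell differentiation, Kdm2b carries a zinc finger for unmethylated CpG and recruits a variant Polycomb complex, and Kdm6b is known for its induction in macrophages by inflammatory stimuli.

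All 9 genes are annotated on mouse build GRCm38. Kdm1a lies at chr4:136550540-136602723, Kdm2a at chr19:4314419-4398285, Kdm2b at chr5:122870665-122989823, Kdm3a at chr6:71588972-71632990 and Kdm4a at chr4:118136957-118180043, all on the minus strand. Kdm5a lies at chr6:120364124-120444574 and Kdm5b at chr1:134560171-134635285, both on the plus strand. Kdm6b lies at chr11:69398508-69413675 and Kdm7a at chr6:39136623-39206789, both on the minus strand. Exons of Kdm2b overlap those of Rnf34 on the other strand over 627 bases, those of Kdm5a overlap Ccdc77 over 251 bases, and those of Kdm6b overlap Kdm6bos over 286 bases. How the counting treated strand is not given in the sources used here, so reads in these stretches may belong to either gene.

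The sequences upstream of Kdm7a, Kdm3a and Kdm4a are shown because these genes rose at 12h and their starts lie in captured promoter fragments. RefSeq promoters of build GRCm38.p6 were matched for 6 of the 9 members, Kdm1a, Kdm2b, Kdm3a, Kdm4a, Kdm5b and Kdm7a, with 11 start sites in all. Each stretch is read 5′ to 3′ on the minus strand, outside every annotated exon, and the capitals mark CpG dinucleotides, the unit that the zinc finger of Kdm2b reads. They are Kdm7a at chr6:39206790-39206989, Kdm3a at chr6:71632991-71633167 and Kdm4a at chr4:118180044-118180243.
Kdm7a: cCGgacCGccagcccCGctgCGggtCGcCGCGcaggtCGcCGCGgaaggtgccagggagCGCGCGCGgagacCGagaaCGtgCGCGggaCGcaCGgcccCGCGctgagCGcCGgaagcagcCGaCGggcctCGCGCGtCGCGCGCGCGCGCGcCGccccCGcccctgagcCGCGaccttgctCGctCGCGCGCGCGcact
Kdm3a: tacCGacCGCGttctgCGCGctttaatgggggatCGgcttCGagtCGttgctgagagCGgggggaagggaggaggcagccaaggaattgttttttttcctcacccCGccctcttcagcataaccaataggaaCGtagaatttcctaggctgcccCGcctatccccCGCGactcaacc
Kdm4a: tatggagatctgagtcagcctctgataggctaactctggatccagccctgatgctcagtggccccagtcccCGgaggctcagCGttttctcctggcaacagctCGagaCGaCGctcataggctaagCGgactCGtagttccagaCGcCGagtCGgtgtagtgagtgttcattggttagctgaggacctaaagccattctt

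The 3 promoters differed in CpG content. In the window of 250 bases before the start, Kdm7a had 56 CpG dinucleotides and Kdm4a had 12, while the 3 start sites of Kdm3a had 20 for the one shown and 0 and 31 for the others, against a median of 6 over all 32851 promoters searched. The printed stretches are parts of these windows and hold 46 CpG for Kdm7a, 14 for Kdm3a and 10 for Kdm4a. The GC content of the full windows was 82.0% for Kdm7a, 59.6% for the Kdm3a start shown and 53.6% for Kdm4a, against a median of 52.4%. The motifs searched on both strands of the 250 bases were the C/EBP motif TTGCNNAA, the PU.1 motif GAGGAAGT, the hypoxia response element TACGTG and the E2F motif, as TTTGGCGC or TTTCGCGC. None of these letters occurred in any of the 11 member promoters, while 9.56%, 2.44%, 2.72% and 0.65% of all promoters held the respective motif.

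The RNA values are TPM, transcript abundances that adjust for length and for the library total and keep no sequencing depth, so the depth is unknown and no counting interval can be given. A ribosomal RNA locus (CT010467.1 and AY036118) took 70.3 to 82.9% of the TPM of a library, and the libraries were therefore scaled by median-of-ratios size factors, with group means of 0.91, 1.43, 1.15 and 0.68 in the order of the times. Levels below are scaled TPM, and differences are log2 fold changes on log2(scaled TPM + 0.1) from limma, called at a Benjamini-Hochberg adjusted p under 0.05 over the 16415 genes whose mean TPM reached 0.1. The filter left 8 of the 9 members, since Kdm5b had a mean of 0.049 TPM. Kdm7a passed it only through the 12h libraries, its mean over the other 9 libraries being 0.079 TPM, so the counts of members below leave it out and its tests are given from a fit without the filter. The scaling sets the balance of calls over all genes. The share of calls that were higher was, with scaling, 52.4%, 52.5% and 52.7% for 1h, 12h and 48h against 0h, and 94.5%, 74.1% and 36.9% on TPM as deposited, whose median log2 fold change over all genes was 0.59, 0.34 and -0.18. It was 56.2% for 12h against 1h, 46.9% for 48h against 12h and 50.0% for 48h against 1h with scaling, and 31.7%, 11.4% and 15.5% as deposited, with medians of -0.29, -0.62 and -0.88.

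The Pre-B and macrophage marker genes followed the labels. The summed level of 9 Pre-B markers, such as Pax5, Ebf1 and Vpreb1, fell from 315 to 341 scaled TPM in the 0h libraries to 40.4 to 48.4 at 48h, and 9 of 9 were called lower at 48h. That of 10 macrophage markers, such as Csf1r, Itgam and Mmp12, rose from 16.0 to 18.8 at 0h to 1364 to 1652 at 48h, and 9 of the 9 tested were called higher, while Adgre1 stayed under the filter. Of 8 granulocyte markers, Mpo and S100a9 were at 0 in all libraries, and the sum was at most 0.60 at 0h, 9.28 to 12.9 at 12h and 2.53 to 6.31 at 48h, from Camp, S100a8 and Prtn3. The 3 granulocyte markers tested were called higher at 12h and at 48h, and on TPM as deposited 3 were at 12h and 2 at 48h. Among 7 T and NK cell markers, Cd3e, Cd3g, Cd4 and Ncr1 were at 0 throughout and the sum never passed 1.38. Among 7 stromal and epithelial markers, 6 were at 0 in every library, and Pecam1 gave the sum of 3.41 to 10.1. The part that these cell states have in the changes of the demethylases was not tested.

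In the course of the conversion the demethylase genes moved in both directions. Kdm2a (an H3K36 demethylase) and Kdm4a (H3K9 and H3K36) rose by 12h and were higher at 48h, Kdm3a (H3K9) rose at 12h, and Kdm2b and Kdm6b (H3K27) fell. The 48h calls of Kdm2a and Kdm4a did not hold on TPM as deposited. Kdm7a (H3K9 and H3K27) was higher at both later times in a fit without the filter. Kdm1a and Kdm5a were not called at any time against 0h. At 1h none of the 7 members counted was called, against 5.41% of all genes higher and 4.92% lower. Before adjustment, the limma p at 1h was 0.0261 for Kdm2b and 0.0110 for Kdm6b, both lower. The shares of all genes refer to the adjusted p. At 12h 3 of 7 were higher and 1 lower, against 16.0% and 14.5% of all genes. At 48h 2 of 7 were higher and 2 lower, against 24.5% and 22.0%. The plot of levels by library shows the values behind these counts.

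**Figure D1:**
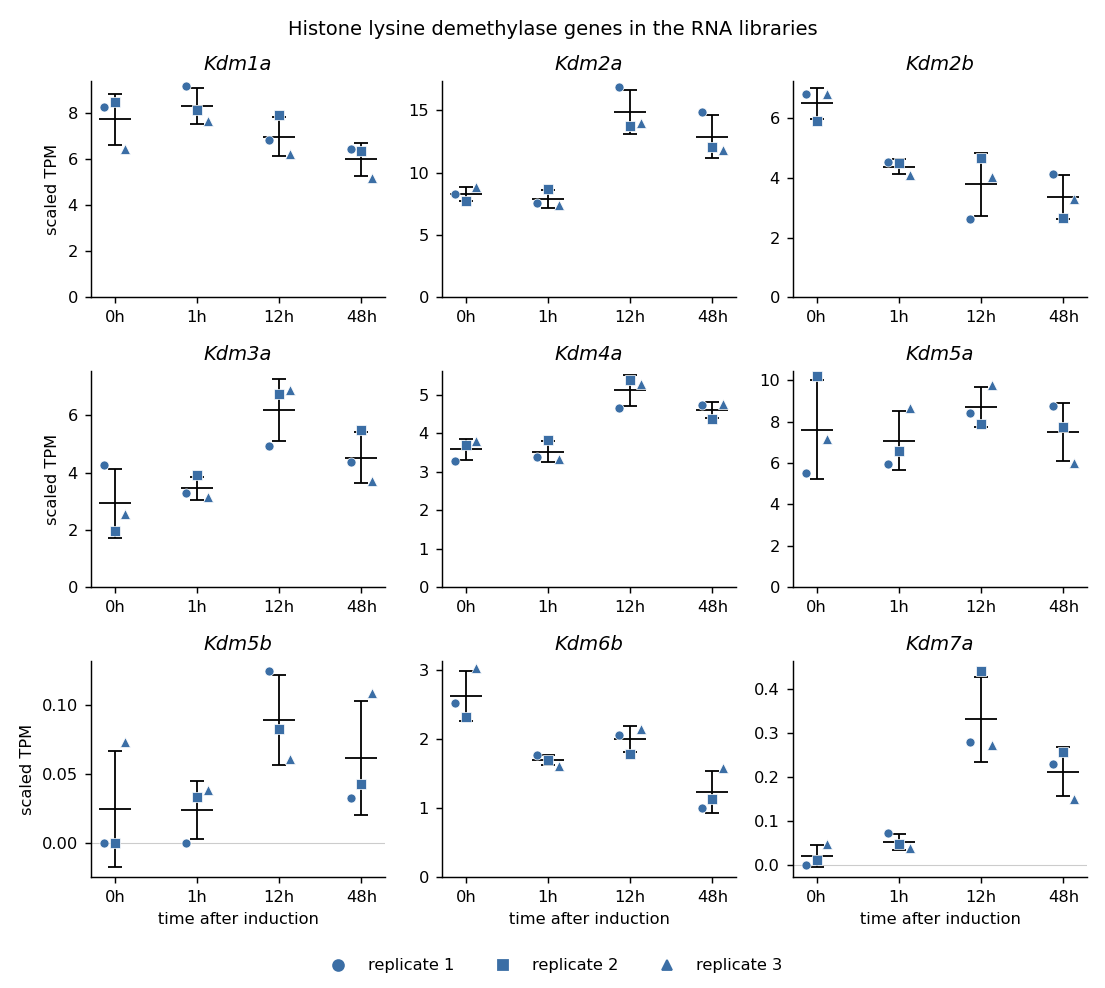
Scaled TPM (vertical axis, 1 panel per gene, each with its own scale) at 0h, 1h, 12h and 48h. Points are single libraries, marked by replicate number, the horizontal bar is the mean of 3 libraries and the error bar is ± 1 SD. The 12h libraries of Kdm2a, Kdm3a, Kdm4a and Kdm7a all lie above their 0h libraries, and those of Kdm2b and Kdm6b all lie below. The 12h difference of Kdm6b was not called.

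At 0h the order of the levels was Kdm2a (mean 8.28), Kdm1a (7.73), Kdm5a (7.62), Kdm2b (6.50), Kdm4a (3.59), Kdm3a (2.93), Kdm6b (2.63), Kdm5b and Kdm7a. Among these neighbours, the libraries did not overlap between Kdm2b and Kdm4a and between Kdm6b and Kdm5b, and overlapped for the others. At 48h the order was Kdm2a (12.9), Kdm5a (7.49), Kdm1a, Kdm4a (4.62), Kdm3a (4.52), Kdm2b (3.36), Kdm6b (1.24), Kdm7a (0.21) and Kdm5b (0.06). The libraries overlapped between Kdm5a and Kdm1a, between Kdm4a and Kdm3a and between Kdm3a and Kdm2b, and not between the other neighbours at 48h.

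Among the H3K4 demethylases no call was made against 0h. Kdm1a, which removes mono- and dimethyl groups from H3K4, had 8.27, 8.47 and 6.45 scaled TPM in the 0h libraries, 9.19, 8.12 and 7.67 at 1h, 6.83, 7.91 and 6.20 at 12h, and 6.46, 6.37 and 5.18 at 48h. The 48h libraries overlapped the 0h libraries through the single low value of 0h replicate 3. Replicate 3 was the lowest of its time for Kdm1a at all 4 times, and also had the lowest share of ribosomal RNA at each time (70.3 to 76.9%); the part of this in the values was not tested. The log2 fold change at 48h was -0.36 (95% interval -0.71 to -0.01, adjusted p = 0.0887) and that against 1h was -0.47 (adjusted p = 0.0361). Without 0h replicate 3 the 48h value was -0.48 (adjusted p = 0.0335), without all of replicate 3 it was -0.38 (adjusted p = 0.0467), and on TPM as deposited it was -0.76 (adjusted p = 0.00921). The call against 1h was lost without 1h replicate 1 (adjusted p = 0.112), without 1h replicate 2 (0.0668) and without 48h replicate 3 (0.0961).

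Kdm5a, which removes tri- and dimethyl groups from H3K4 and binds the retinoblastoma protein, had 5.52, 10.2 and 7.14 scaled TPM at 0h and 8.74, 7.74 and 5.99 at 48h. The 0h libraries spanned the range of the 48h libraries. The log2 fold change at 48h was 0.00 with a 95% interval of -0.51 to 0.52, so changes inside that interval could not be seen with this spread. At 12h its libraries held 8.39, 7.90 and 9.76 scaled TPM (log2 fold change 0.23, adjusted p = 0.509).

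Kdm5b, a further H3K4 demethylase, had the lowest mean of the 9 genes over the 12 libraries, 0.050 scaled TPM. It was listed at 0 in 0h replicates 1 and 2 and in 1h replicate 1, and its highest scaled TPM per time were 0.07, 0.04, 0.13 and 0.11. Fitted without the filter, its adjusted p was 0.167 for 12h against 0h.

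The demethylases of H3K36 went in opposite directions. Kdm2a had 8.26, 7.71 and 8.87 scaled TPM at 0h and 7.56, 8.72 and 7.43 at 1h. It then had 16.9, 13.8 and 14.0 at 12h and 14.9, 12.0 and 11.8 at 48h. All libraries of the later times lay above all of the earlier ones. The rise was 1.78-fold at 12h (log2 0.83, SE 0.14, adjusted p = 0.00104) and 1.54-fold at 48h (log2 0.63, SE 0.14, adjusted p = 0.00328). The 12h call held at an adjusted p under 0.05 in 23 of 23 alternative fits, while its log2 fold change in the main fit was under 1. At 48h the log2 fold change was 0.22 on TPM as deposited (adjusted p = 0.306) and 0.55 where TPM were rescaled with the 20 most abundant genes removed (adjusted p = 0.0589).

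Kdm2b, the close relative of Kdm2a, had 6.80, 5.90 and 6.80 scaled TPM at 0h, 4.53, 4.50 and 4.08 at 1h, 2.63, 4.67 and 4.04 at 12h, and 4.12, 2.66 and 3.29 at 48h. All libraries after induction lay below all 0h libraries. The log2 fold change was -0.56 at 1h (adjusted p = 0.135), -0.80 at 12h (adjusted p = 0.0167) and -0.95 at 48h (SE 0.22, adjusted p = 0.00388), the last a level 0.52 times that of 0h. The 12h call was lost without 0h replicate 3 (adjusted p = 0.0513), without 12h replicate 1 (0.0556), without all of replicate 3 (0.135), with only the 6 libraries compared (0.0514), after rescaling with the 20 most abundant genes removed (0.0655) and on TPM as deposited (log2 -0.47, adjusted p = 0.194). The 48h call was lost without all of replicate 3 (adjusted p = 0.0777), and on TPM as deposited the 1h log2 fold change was 0.09.

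Kdm4a, which acts on trimethylated H3K9 and H3K36, had 3.28, 3.69 and 3.8 scaled TPM at 0h, 3.38, 3.84 and 3.34 at 1h, 4.67, 5.40 and 5.29 at 12h, and 4.73, 4.38 and 4.75 at 48h. The libraries of 12h and 48h lay above those of 0h and 1h. The change was 1.41-fold at 12h (log2 0.50, SE 0.13, adjusted p = 0.0141) and 1.28-fold at 48h (log2 0.36, adjusted p = 0.0438). The 12h call was lost without all of replicate 3 (adjusted p = 0.0549). The 48h call was lost without 0h replicate 1 (adjusted p = 0.124), 0h replicate 2 (0.0689), 48h replicate 1 (0.0869) or 48h replicate 3 (0.0700), and on TPM as deposited the log2 fold change was -0.045 (adjusted p = 0.884). That call was also lost after rescaling with the 20 most abundant genes removed (adjusted p = 0.230) and under quantile normalization (0.0642). The same held in a fit without trend (0.0752) and without all of replicate 3 (0.0881).

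The H3K9 demethylase Kdm3a, a gene known to be induced by hypoxia, had 4.27, 1.96 and 2.57 scaled TPM at 0h, 3.29, 3.90 and 3.16 at 1h, 4.93, 6.72 and 6.89 at 12h, and 4.37, 5.48 and 3.71 at 48h. It was highest at 12h, where all libraries exceeded those of 0h and 1h, and the 48h libraries overlapped those of 0h through 0h replicate 1. The rise at 12h was 2.15-fold (log2 1.11, SE 0.27, adjusted p = 0.00878), and the 48h log2 fold change was 0.66 (adjusted p = 0.0616). The 12h call was lost with only the 6 libraries compared (adjusted p = 0.0517) and without all of replicate 3 (0.143), and without 0h replicate 1 the 48h value was 0.96 (adjusted p = 0.00628). The fall from 12h to 48h did not pass the test (log2 -0.44, adjusted p = 0.28).

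Kdm7a, which acts on dimethylated H3K9 and H3K27, was at a low level throughout. Its libraries held 0, 0.01 and 0.05 scaled TPM at 0h, 0.07, 0.05 and 0.04 at 1h, 0.28, 0.44 and 0.27 at 12h, and 0.23, 0.26 and 0.15 at 48h. All libraries of 12h lay above those of 48h, and these above all of 0h and 1h. Fitted without the filter, so that its own level did not decide whether it was tested, the log2 fold change was 1.85 at 12h (SE 0.30, adjusted p = 0.00153) and 1.38 at 48h (adjusted p = 0.00472). Because the levels lie near the pseudocount, the size is not fixed: over the alternatives at 12h it ran from 0.38 to 3.85 and at 48h from 0.25 to 3.23, with the lowest values at a pseudocount of 1 and the highest at 0.01. The 48h call was lost under quantile normalization (adjusted p = 0.0872).

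Kdm6b, which removes di- and trimethyl groups from H3K27, had 2.53, 2.32 and 3.03 scaled TPM at 0h, 1.77, 1.71 and 1.62 at 1h, 2.07, 1.79 and 2.15 at 12h, and 1.00, 1.13 and 1.58 at 48h. All libraries after induction lay below the 0h libraries, and the 48h libraries were the lowest. The log2 fold change was -0.59 at 1h (adjusted p = 0.0805), -0.37 at 12h (adjusted p = 0.178) and -1.04 at 48h (SE 0.19, 95% interval -1.47 to -0.61, adjusted p = 0.00104), the last a level 0.49 times that of 0h. The 48h call held in 23 of 23 alternatives. On TPM as deposited the 1h log2 fold change was 0.04.

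**Figure D2:**
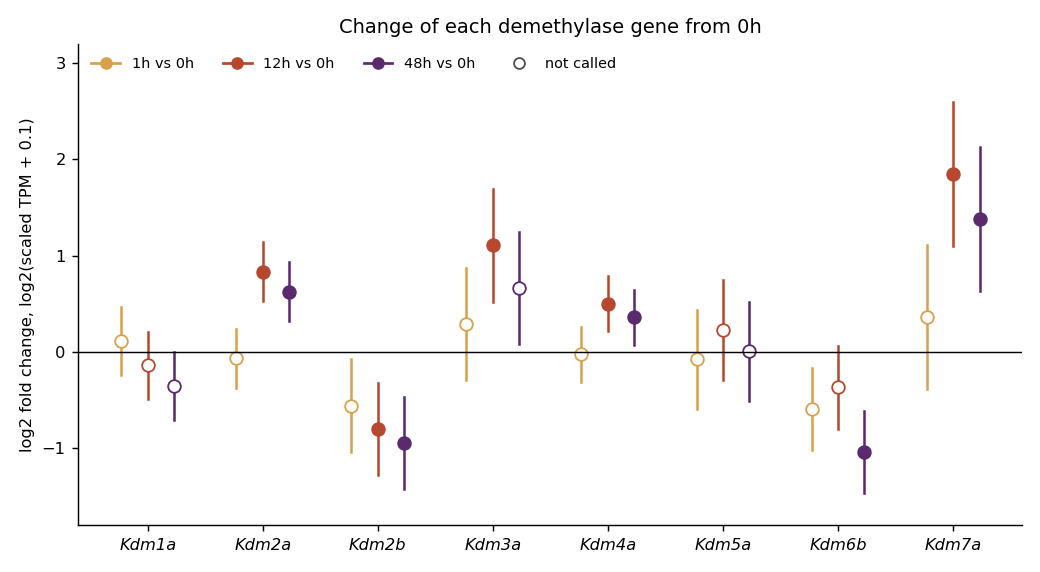
Log2 fold change from 0h (vertical axis) of the 8 members tested, at 1h, 12h and 48h, with 95% intervals from limma; filled points passed an adjusted p under 0.05. Kdm7a passed the filter only through its 12h libraries. No point is filled at 1h, and at 48h Kdm2a, Kdm4a and Kdm7a lie above 0 and Kdm2b and Kdm6b below.

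From 1h to 12h, 2 of 7 members rose, Kdm2a (log2 0.90, adjusted p = 0.000907) and Kdm4a (0.53, adjusted p = 0.0153), and none fell, against 11.2% of all genes higher and 8.76% lower. On TPM as deposited the values were 0.58 for Kdm2a and 0.21 for Kdm4a (adjusted p = 0.447), and the Kdm4a call was also lost after rescaling with the 20 most abundant genes removed (adjusted p = 0.0954) and without all of replicate 3 (0.097). Kdm3a had all 12h libraries above all 1h libraries and missed the threshold (log2 0.81, adjusted p = 0.0526). From 12h to 48h, 1 of 7 was called, Kdm6b, which fell by 0.67 on the log2 scale (adjusted p = 0.0292), against 10.5% of all genes higher and 11.9% lower. That call was lost when any of 4 libraries was left out, with adjusted p of 0.0768 without 12h replicate 1, 0.0873 without 12h replicate 3, 0.0931 without 48h replicate 1 and 0.079 without 48h replicate 2. On TPM as deposited, 7 of 7 were called lower at 48h than at 12h, beside 5205 lower and 673 higher of 16415 genes on that scale. From 1h to 48h, 3 of 7 members were called, with Kdm2a (log2 0.69) and Kdm4a (0.38) higher and Kdm1a lower, against 39.5% of all genes called in either direction.

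The genes that kept closest to Kdm7a and Kdm6b, the members with the largest log2 rise and fall at 48h with the pseudocount of 0.1, were looked up by Pearson correlation of log2(scaled TPM + 0.1) over the 12 libraries, among genes whose mean TPM reached 1. These libraries fall into 4 times of 3, so the measure follows the time means, and it is given as a description. The choice of these 2 members depends on the setting: with a pseudocount of 1 Kdm7a rose by 0.25 and Kdm2a by 0.58, and Kdm2b fell by 0.79 and Kdm6b by 0.70, and without 48h replicate 1 Kdm2b fell by 1.11 and Kdm6b by 0.91. For Kdm7a these were Prune2 (r = 0.96), with means of 0.24, 0.42, 4.63 and 1.90 scaled TPM at 0h, 1h, 12h and 48h, Wsb1 (r = 0.96) and Rmc1 (r = 0.96). All 3 were highest at 12h. For Kdm6b they were the ribosomal protein gene Rps12 (r = 0.96), with means of 179, 108, 112 and 58.5 scaled TPM, Chac1 (r = 0.95) and Adgrg3 (r = 0.95), all 3 highest at 0h and lowest at 48h.

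The other histone demethylases of the mouse moved both ways as well. Of 16 listed, 14 were tested at 48h, and 5 were higher and 3 lower, beside 24.5% and 22.0% of all genes, with a median log2 fold change of 0.17 against 0.07 over all genes. The counts on TPM as deposited were 3 higher and 4 lower, beside 2611 higher and 4466 lower of 16415 genes on that scale. Uty, the Y-linked relative of the H3K27 demethylase Kdm6a, rose from a mean of 1.79 to 5.80 scaled TPM (log2 1.67, adjusted p = 3.68e-05). Phf8, a demethylase of H3K9 in the family of Kdm7a, rose (log2 1.36, adjusted p = 0.000267), as did Jmjd1c, a relative of Kdm3a (log2 1.29, adjusted p = 0.000371). The Jumonji proteins Riox1 and Riox2, which act as ribosomal oxygenases, fell by 2.38 and 0.77 on the log2 scale, and Kdm8 fell by 2.43 from a mean of 0.75 scaled TPM. Hr and Kdm4d were under the filter. At 1h none of the 14 was called with scaling, beside 5.41% of all genes higher and 4.92% lower. On TPM as deposited 6 were higher at 1h, beside 3955 higher of 16415 genes. At 12h 4 were higher and 2 lower with scaling, beside 16.0% and 14.5% of all genes.

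**Figure D3:**
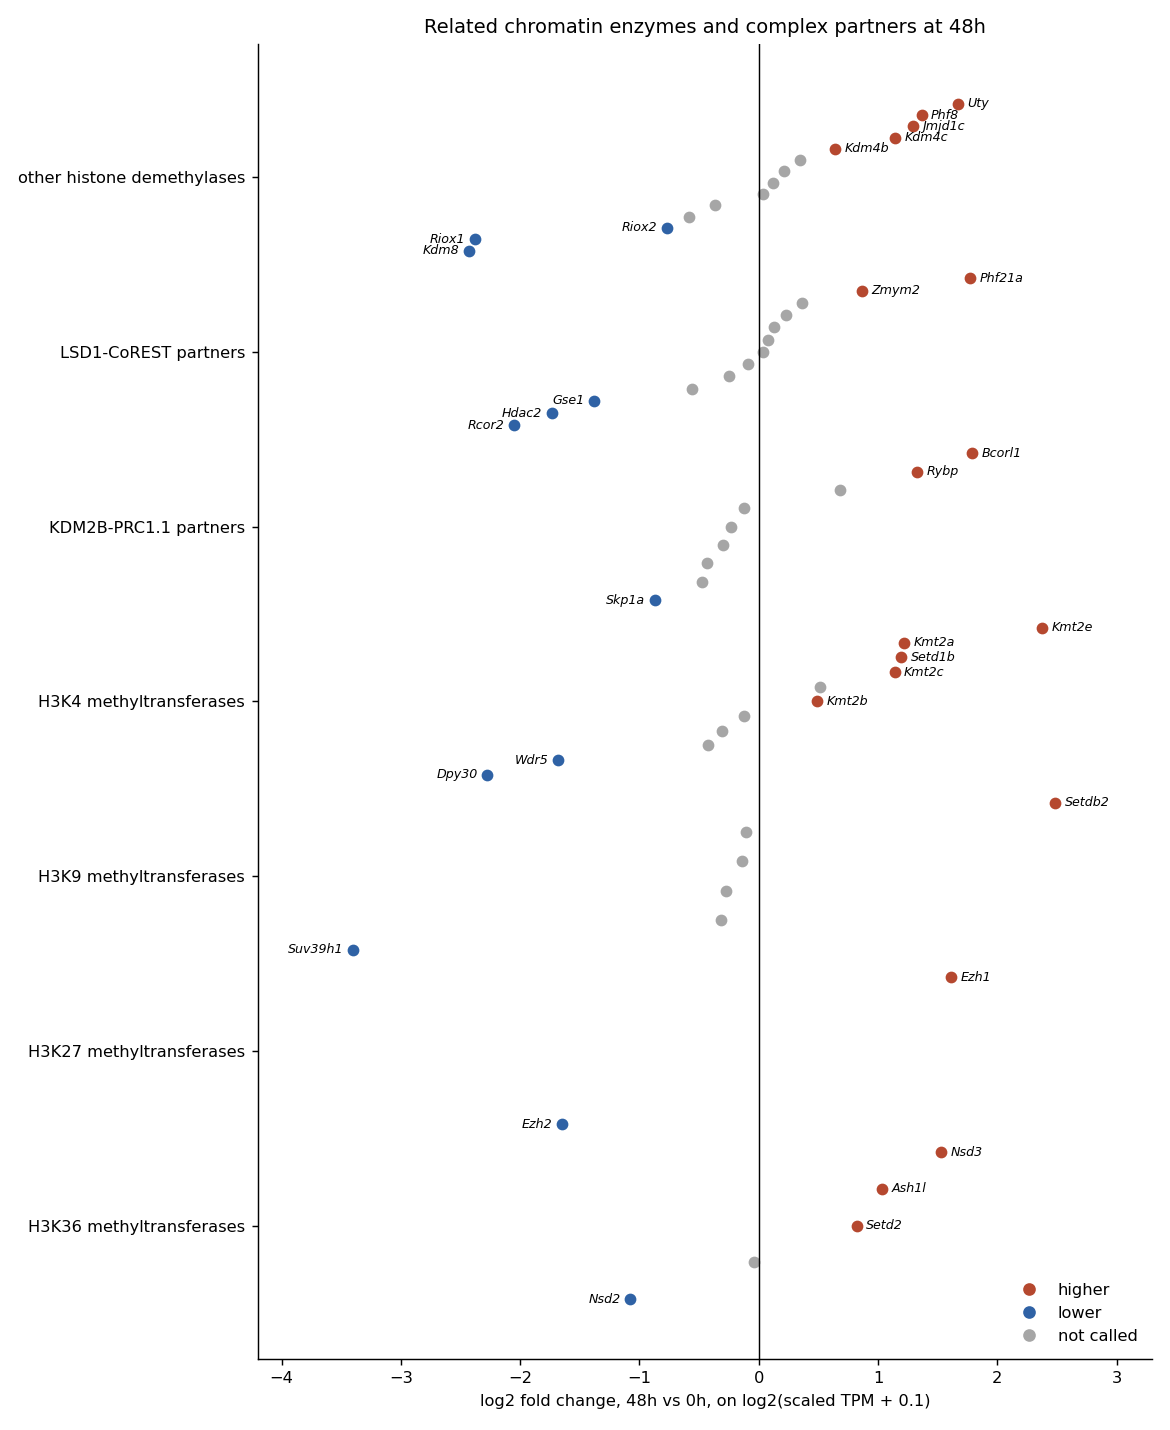
Log2 fold change at 48h against 0h (horizontal axis) of the tested genes in 7 lists of demethylases, complex partners and histone methyltransferases. Red points were called higher, blue points lower and grey points were not called; each list holds genes on both sides of 0.

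Partners of 2 members were followed as complexes. Of 13 partners of Kdm1a in the CoREST complex, 2 were higher and 3 lower at 48h, with a median log2 fold change of 0.04, beside the same 24.5% and 22.0% of all genes. With TPM as deposited, 1 was higher and 3 were lower, beside 2611 higher and 4466 lower of 16415 genes on that scale. Phf21a, which reads unmethylated H3K4, rose to 7.30 scaled TPM (log2 1.77, adjusted p = 6.92e-05), and Zmym2 rose (log2 0.87, adjusted p = 0.00688; on TPM as deposited 0.46, adjusted p = 0.161). Rcor2, a CoREST scaffold, fell from 0.79 to 0.11 scaled TPM (log2 -2.05, adjusted p = 0.00839), the deacetylase Hdac2 fell from 7.08 scaled TPM (log2 -1.74, adjusted p = 1.81e-05), and Gse1 fell (log2 -1.38, adjusted p = 0.00014). Of 9 partners of Kdm2b in the variant Polycomb complex PRC1.1, 2 were higher and 1 lower, beside the same shares, with a median of -0.24. On TPM as deposited 2 were higher and 3 lower, beside the same deposited counts over all genes. Bcorl1 (log2 1.79, adjusted p = 0.00261) and Rybp (log2 1.33, adjusted p = 0.000911) rose, and Skp1a fell from 16.8 to 9.14 scaled TPM (log2 -0.87, adjusted p = 0.000105).

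Gene lists drawn up for methylation of the marks removed by these members held calls in both directions at 48h, beside the same shares of all genes. Their counts on TPM as deposited stand beside 2611 higher and 4466 lower of 16415 genes on that scale. Of 11 genes listed for H3K4 methylation, by family name or as shared subunits, 5 were higher, 2 lower and 4 not called. Their median log2 fold change was 0.49, and on TPM as deposited 4 were higher and 4 lower. The calls that rose most were Kmt2e (from 3.88 to 21.2 scaled TPM, log2 2.38), Kmt2a (log2 1.22) and Setd1b (log2 1.19). Kmt2e is in the list by its family name, and no methyltransferase activity was measured. The calls that fell were the shared subunits Dpy30 (log2 -2.27) and Wdr5 (log2 -1.68). Of 6 H3K9 methyltransferases (median -0.21) 1 was higher, 1 lower and 4 not called (1 higher and 2 lower on TPM as deposited), with Setdb2 (log2 2.48, adjusted p = 7.32e-06) and Suv39h1, which fell from 5.10 to 0.39 scaled TPM (log2 -3.40, adjusted p = 7.72e-08). Both H3K27 methyltransferases were called, Ezh1 higher (from 2.24 to 7.17 scaled TPM, log2 1.61, adjusted p = 0.00104) and Ezh2 lower (from 14.5 to 4.59, log2 -1.65, adjusted p = 3.15e-05). Of 5 H3K36 methyltransferases 3 were higher and 1 lower, with a median of 0.82 (2 higher and 1 lower on TPM as deposited). Nsd3 (log2 1.53), Ash1l (log2 1.03) and Setd2 (log2 0.82; on TPM as deposited 0.41, adjusted p = 0.212) rose and Nsd2 fell by 1.08 on the log2 scale.

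Promoter contacts were listed for 7 of the 9 members. No listed promoter fragment held an annotated start of Kdm2b or Kdm5b. The 7 genes had 25, 24, 28 and 24 listed contacts at 0h, 1h, 12h and 48h, and over all times 63 different pairs of fragments, 10.3 to 579.5 kb apart (median 222 kb). Of the 63 pairs, 42 were listed at 1 time and 4 at all 4 times. A gene with a listed promoter fragment had a median of 5 contacts at each time, over 23193 genes. Each list merges the replicates of a time, so a difference between times has no replicate check, and no test was made.

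**Figure D4:**
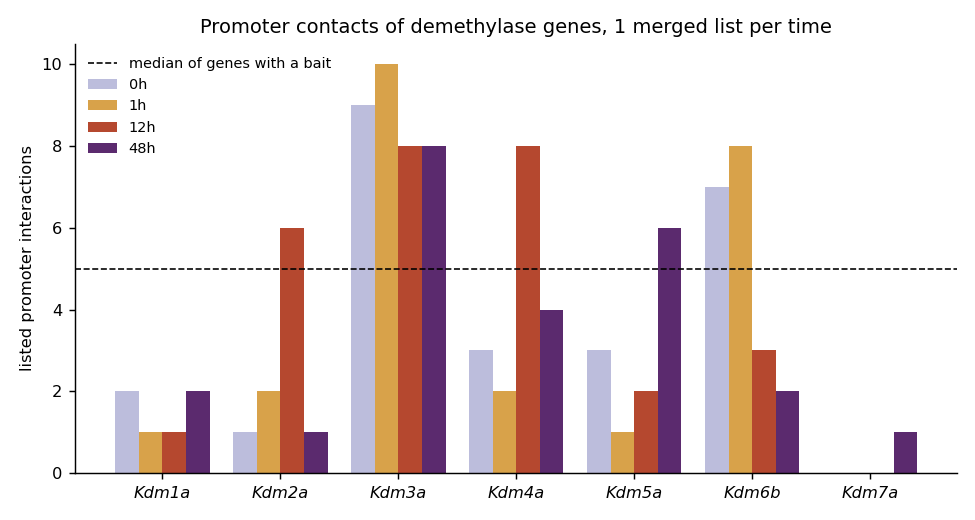
Number of listed promoter interactions (vertical axis) of the 7 members with a captured fragment at 0h, 1h, 12h and 48h, from 1 merged list per time; the dashed line is the median of 5 over all genes with a fragment. Kdm3a has 8 to 10 at every time, and Kdm7a has 1, at 48h.

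Kdm3a had 9, 10, 8 and 8 contacts at the successive times, the most of the 7 genes except at 12h, where Kdm4a also had 8. Its promoter fragment at chr6:71631128-71635306 was joined at all 4 times to fragments at chr6:71801237-71806603 and chr6:71813255-71815988, which lie 170.7 and 181.4 kb away and hold no protein-coding start. A pair with the promoter fragment of Immt, at 199.6 kb, was listed at 1h, 12h and 48h and not at 0h. The pair with the promoter of Krcc1 was listed at 0h and 1h. A pair with a start of Ptcd3 at 247.7 kb was listed at 0h, 1h and 12h, and a pair with a further start of that gene, at 268.5 kb, was listed at 48h.

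Kdm6b had 7, 8, 3 and 2 contacts in the same order. The pair with the promoter of Fxr2, 219.1 kb away, was listed at all 4 times. Pairs with the promoter of Per1 (at 0h) and of Tmem107 (at 0h and 1h) were not listed later. A pair with the fragment directly next to that of Per1, chr11:69096113-69097664, was listed at 0h and 12h.

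Kdm2a had 1, 2, 6 and 1 contacts at 0h, 1h, 12h and 48h. The pair listed at all 4 times joined its promoter fragment to chr19:4342623-4343295, 53.3 kb away in the body of Kdm2a itself, and the 5 pairs added at 12h also ended within or at the end of that gene. Kdm4a had 3, 2, 8 and 4 contacts, and those with the promoters of Dmap1 (498.5 kb) and Slc6a9 (341 kb) were listed at 12h and 48h.

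Kdm5a had 3, 1, 2 and 6 contacts. The pair with the promoter of Il17ra, 107 kb away, was listed at 0h, 1h and 12h, and the 6 pairs at 48h reached 330.8 to 421 kb in the direction of Wnk1. Kdm1a had 2, 1, 1 and 2 contacts, of which none at 0h was listed again. Kdm7a, whose CpG-rich promoter is printed above, had none until 48h, when 1 fragment 132.7 kb away was listed.

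Of the 25 contacts at 0h, 13, 12 and 8 were listed again at 1h, 12h and 48h, beside 57.6%, 53.2% and 55.9% of all 138769 interactions at 0h. The scores of the 25 ran from 5 to 9.68, while 19.2% of all interactions at that time scored 10 or more.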

How the data were processed

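RNA was sequenced in 12 libraries, 3 per time. The authors trimmed reads with Trim Galore 0.6.2, mapped them to mm10 with HISAT2 2.1.0 and deposited TPM from RSEM; FastQC is also named in the submitters' processing notes. The deposited Promoter Capture Hi-C lists merge the replicates of a time after calling with CHiCAGO at a score cut-off of 5; the deposited value is a score at 0h and a whole number of another, unnamed unit at 1h, 12h and 48h, which was not used.

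TPM were divided by median-of-ratios size factors over genes above 0 in every library and tested as log2(scaled TPM + 0.1) with limma 3.58.1 (R 4.3.3; mean-variance trend; 12 libraries in 1 model with time as the factor; Benjamini-Hochberg) over genes whose mean TPM reached 0.1. The fit was tested on simulated data. TPM keep no depth, and the number of libraries limits the precision; p-values measure the spread between libraries of 1 cell line.

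A contact of a gene is a listed pair with a fragment holding a GENCODE M21 start; pairs with the same fragments at 2 times count as shared. Motifs were searched in the 250 bases upstream of RefSeq starts. Named genes are the members, up to 3 called genes each way per list by log2 fold change at 48h, and the 3 genes closest to 2 members. The members, lists and motifs were chosen with earlier results of these data known, and the marking of CpG after the promoters were seen. Alternatives were another scaling, pseudocount, filter, trend, set of libraries, a replicate block and a stricter threshold. The stricter threshold was applied to the counts of members and is not among the alternatives counted for a single member. Protein sequences were not analysed here. 1 gene of the marker lists is not reported here.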

Additional observations from a re-analysis of the deposited data

Results flagged for a closer look

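By limma's contrast of 48h against 1h, the change from 0h differed between 1h and 48h for 2 members higher and 1 lower, of the 7 counted. This stood beside 39.5% of all genes called in either direction. Kdm7a, which passed the filter only through its 12h libraries, is left out of this count. The 48h effect minus the 1h effect on the log2 scale was -0.47 for Kdm1a (adjusted p = 0.0361), 0.69 for Kdm2a (adjusted p = 0.00205) and 0.38 for Kdm4a (adjusted p = 0.0373). For Kdm7a, in a limma fit without the filter, it was 1.02 (adjusted p = 0.0295). On TPM as deposited the values were -1.53 for Kdm1a, -0.37 for Kdm2a, -0.66 for Kdm4a and 0.47 for Kdm7a (adjusted p = 0.296 for the last). The call was lost in 4 of 23 alternatives for Kdm1a, in 1 for Kdm2a and 8 for Kdm4a, beside the turned values, and in 9 of 22 for Kdm7a. For Kdm7a these included fits with the filter that left out 1h replicate 2 (adjusted p = 0.059), 1h replicate 3 (0.051), 48h replicate 1 (0.0705) or 48h replicate 2 (0.0787). For Kdm4a they included leaving out 1h replicate 1 (0.0842), 1h replicate 3 (0.0762), 48h replicate 1 (0.0773) or 48h replicate 3 (0.0594), and for Kdm1a 1h replicate 1 (0.112), 1h replicate 2 (0.0668) or 48h replicate 3 (0.0961). The cause was not tested.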

How the results depend on the processing

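Over the members and comparisons, of 1098 values, Kdm7a included, 980 kept their direction and side of the threshold, 51 lost and 25 gained a call, 6 changed sign with a call before or after and 36 changed sign with no call in either fit. Of these 36, 8 were on TPM as deposited, 11 under the other scalings and 17 with libraries left out. All counts of members called in this section include Kdm7a. On TPM as deposited 3 members were called at 1h against 0h, all higher, beside 3955 higher of 16415 genes. From 12h to 48h 7 were called, all lower, beside 5205 lower of 16415 genes. The 6 sign changes with a call were all on TPM as deposited: at 1h Kdm2a became 0.59 and Kdm4a 0.62, at 48h Kdm4a became -0.045, and for 48h against 1h Kdm2a became -0.37, Kdm4a -0.66 and Kdm5a -0.98, in log2. Rescaling without the 20 most abundant genes left 3 members called at 48h against 0h and 2 for 48h against 1h, quantile normalization left 3 at 48h, and a fit without trend left 2 for 48h against 1h. With only the 6 libraries compared, the counts were 1 at 1h, 3 at 12h and 0 from 12h to 48h. A log2 fold change beyond 1 left 2 at 12h, 2 at 48h, 1 from 1h to 12h, 0 from 12h to 48h and 1 for 48h against 1h. Kdm7a was the only such call from 1h to 12h (log2 1.48) and for 48h against 1h (log2 1.02). It was also among those at 12h and at 48h, where the others were Kdm3a and Kdm6b respectively. Leaving out each library in turn, or all of replicate 3, gave 0 to 1 member at 1h, 2 to 5 at 12h, 4 to 6 at 48h, 2 to 4 from 1h to 12h, 0 to 1 from 12h to 48h and 2 to 4 for 48h against 1h. The lowest 12h count, 2, came without replicate 3, where 1 library fewer per time was compared. For the rescaled, quantile-normalized and trend-free fits, and the fits on fewer libraries, no count over all genes is given here. Their member counts therefore have no background beside them. A score of at least 10 left 0 of the 25 contacts at 0h. Kdm7a was not tested with a filter of 1 TPM.

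With a replicate block, and counting Kdm7a, the counts called were 0 at 1h, 5 at 12h, 6 at 48h, 3 from 1h to 12h, 1 from 12h to 48h and 3 for 48h against 1h. Also counting Kdm7a, the main fit without the block had 0 at 1h, 5 at 12h, 5 at 48h and 3 from 1h to 12h. That fit called Kdm6b from 12h to 48h, and Kdm1a, Kdm2a, Kdm4a and Kdm7a for 48h against 1h. With the block, Kdm1a at 48h gained its call (adjusted p = 0.0331) and Kdm7a for 48h against 1h lost it (adjusted p = 0.0521). No count over all genes is given here for the fit with the block. The numbers did not meet the rule for pairing: deviations of same-numbered libraries correlated at 0.01 to 0.11 for number 1, -0.01 to 0.05 for number 2 and 0.08 to 0.26 for number 3, and 7 of 12 libraries correlated best with their own number. The libraries of number 3 had the lowest share of ribosomal RNA at each time.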
